A study of Rattus norvegicus with 45 samples.

Results

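The atrium was compared with the libraries labelled V, the ventricle by the series design, within the empagliflozin arm of a study of 8 rat tissues. The comparison used 6 of the 45 libraries of the series, 3 from atrium and 3 from V, chosen by tissue and treatment. It covered every gene of the table: of 20794 genes, 12541 had a mean of at least 1 FPKM (fragments mapped to a gene, per kilobase of its length and scaled by library size) in either chamber and were tested. The animals were male rats of the spontaneously hypertensive strain, whose blood pressure climbs in adult life, recorded as 8 weeks old and 220 to 260 g in weight. All 6 libraries came from rats given empagliflozin, an inhibitor of the renal glucose transporter SGLT2, by gavage at 10 mg/kg per day for 30 days. Atrium from vehicle rats was not analysed here, so the chamber differences below are those of treated hearts, and 3 V libraries from rats given saline for 30 days serve only to show levels. The design names 3 rats per arm, but the labels do not say which atrium, which part of the ventricle or which rat a library came from. The p-values therefore measure the spread between libraries, and an exact permutation test of 3 against 3 libraries could not go below 0.1.

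The tissue label of the V libraries reads liver, whereas the series design names ventricle and no liver. Their transcripts were those of heart muscle: Myh6, the fast cardiac myosin heavy chain, stood at 5151, 3967 and 6164 FPKM, and Tnnt2, cardiac troponin T, at 8491, 9512 and 8510.3 FPKM. The hepatocyte genes Apob and Tat were listed at 0 in all 6 libraries, and Alb, albumin, reached at most 0.09 FPKM in V. Other genes of the hepatocyte list were present, with Ttr, transthyretin, at 26.9, 29 and 17.1 FPKM and Cyp2e1 at 6.54, 6.67 and 20.5 FPKM in V. The atrium libraries held the atrial light chain Myl7 at 17644, 18713 and 17036 FPKM, and the V libraries held the ventricular light chain Myl2 at 8192, 8579.9 and 7379 FPKM. The markers thus went with the series design, and the libraries are called V here.

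Some libraries stood apart. Pearson correlations across genes were 0.972 to 0.981 within atrium, 0.986 to 0.988 within V and 0.901 to 0.928 between them, with atrium 3 the closest to V. Atrium 1 held fat transcripts, with the brown fat uncoupling protein Ucp1 at 96.7, 0 and 0.72 FPKM and the fat hormone Adipoq at 33.2, 0.04 and 3.56 FPKM in atrium 1, 2 and 3. Atrium 3 held less Bmp10 (947, 932 and 127 FPKM), more of the nerve peptide Npy (70.5, 30.5 and 349 FPKM) and more of the early response gene Fos (16.6, 14.6 and 102 FPKM). In V 3, Nppa stood at 25.3 FPKM against 1578 and 1801 FPKM in V 1 and V 2, and the alpha-actin Acta1 at 584 against 3576 and 3485 FPKM. The sums of FPKM over genes ran from 590111 to 659420. Total reads cannot be recovered from FPKM, but the steps between low values put the value of 1 read at 1.0 in the atrium libraries and at 1.10 to 1.14 in the V libraries, relative to all libraries, over 171 to 239 genes each. Only values up to 1.5 times the lowest value of each gene entered, so larger differences in depth could not show. A value of 0 can be a failed estimate, and genes at 0 are given as listed at 0.

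Atrial and ventricular muscle cells share most of their contractile and calcium machinery but build it with different light chains and regulators. Atrial cells store and secrete natriuretic peptides and have shorter action potentials, in part through potassium channels opened by acetylcholine and adenosine. The transcription factors Tbx5, Nr2f1 and Nr2f2 are known for the atrial program, and Irx4 and Hey2 for the ventricular one. Ventricular cells bear the higher load and are densely packed with mitochondria that burn fatty acids, lactate and ketone bodies.

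Promoters are shown for the genes that the chamber difference turns on and that the sequence table held: Myl7, Myl4, Nppa and Bmp10, which were abundant in atrium and low in V, and Myl3 and Rpl3l, which were the reverse. Each is the RefSeq sequence of the GRCr8 build, from 250 bases before the transcription start to 50 bases after it, printed 5′ to 3′ on the gene's strand. The submitters' processing notes name another build, Rnor_6.0, for the deposited values. Capitals mark matches, on either strand, to a GATA motif (AGATAA), a T-box motif (AGGTGT), an NKX motif (AAGTG, added after the sequences were seen) or the CArG box. A MEF2 motif was searched as well and matched none of the 6. Myl7 lies at chr14:84996575-84996874 (reverse strand), Myl4 at chr10:89975900-89976199 (forward strand), Nppa at chr5:163711934-163712233 (forward strand), Bmp10 at chr4:121429125-121429424 (forward strand), Myl3 at chr8:119616844-119617143 (forward strand) and Rpl3l at chr10:14258196-14258495 (forward strand).
Myl7: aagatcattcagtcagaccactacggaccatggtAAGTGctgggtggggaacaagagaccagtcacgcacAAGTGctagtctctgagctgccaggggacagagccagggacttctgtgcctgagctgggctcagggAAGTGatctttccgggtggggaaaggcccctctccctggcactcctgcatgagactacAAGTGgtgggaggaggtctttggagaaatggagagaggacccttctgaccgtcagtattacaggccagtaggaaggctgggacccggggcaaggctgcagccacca
Myl4: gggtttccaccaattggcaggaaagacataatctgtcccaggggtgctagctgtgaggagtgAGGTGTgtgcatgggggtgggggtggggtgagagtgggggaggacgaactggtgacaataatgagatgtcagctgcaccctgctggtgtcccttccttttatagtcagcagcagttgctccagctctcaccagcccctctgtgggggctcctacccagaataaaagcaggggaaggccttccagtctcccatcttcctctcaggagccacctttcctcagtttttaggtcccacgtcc
Nppa: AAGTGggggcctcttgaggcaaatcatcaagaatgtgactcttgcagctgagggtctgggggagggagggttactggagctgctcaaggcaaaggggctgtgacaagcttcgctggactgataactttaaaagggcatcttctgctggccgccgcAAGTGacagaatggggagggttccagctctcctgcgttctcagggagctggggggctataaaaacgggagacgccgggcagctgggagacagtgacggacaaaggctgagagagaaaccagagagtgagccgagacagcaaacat
Bmp10: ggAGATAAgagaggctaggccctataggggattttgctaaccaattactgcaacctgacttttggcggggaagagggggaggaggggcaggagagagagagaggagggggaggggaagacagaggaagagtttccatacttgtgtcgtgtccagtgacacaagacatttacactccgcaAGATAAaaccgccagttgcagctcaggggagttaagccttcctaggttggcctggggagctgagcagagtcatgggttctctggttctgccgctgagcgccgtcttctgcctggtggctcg
Myl3: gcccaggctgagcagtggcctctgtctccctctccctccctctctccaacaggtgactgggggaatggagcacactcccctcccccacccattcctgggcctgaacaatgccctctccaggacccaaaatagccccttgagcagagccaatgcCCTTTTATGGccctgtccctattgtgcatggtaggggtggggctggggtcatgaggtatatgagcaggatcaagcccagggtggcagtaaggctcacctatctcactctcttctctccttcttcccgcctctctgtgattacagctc
Rpl3l: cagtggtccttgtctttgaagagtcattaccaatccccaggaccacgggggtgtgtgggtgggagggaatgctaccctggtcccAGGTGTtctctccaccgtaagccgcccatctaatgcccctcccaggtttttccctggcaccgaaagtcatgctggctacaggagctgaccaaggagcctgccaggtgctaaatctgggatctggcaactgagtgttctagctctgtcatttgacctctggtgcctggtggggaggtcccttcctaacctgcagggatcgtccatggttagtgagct

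The Myl7 promoter held 4 matches to AAGTG, a number that 0.532% of all 33469 promoters of the table reached, and the Nppa promoter held 2, which 13.9% reached. Because AAGTG was added after these sequences were seen, the 0.532% and 13.9% do not measure how unusual the matches are. The Bmp10 promoter held 2 matches to AGATAA, a motif present in 11.6% of all promoters. Myl4 and Rpl3l, on opposite sides of the comparison, each held 1 match to AGGTGT, present in 13.6% of all promoters. Myl3 held 1 CArG box, present in 1.64%. Of the genes tested, 9547 had a promoter in the table, and 6.49% held the GATA motif, 11.4% the T-box motif and 43.5% the NKX motif, the last being present in 46.2% of all promoters. Among genes more than 2 higher in atrium on the log2 scale, 122 had a promoter in the table, and 9.84% held the GATA motif, 15.6% the T-box motif and 41.8% the NKX motif. Among those more than 2 lower, 87 had one, and the shares were 10.3%, 18.4% and 35.6%. These differences between shares were not tested, and a match is a run of letters in this window, not tested as a binding site.

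Across the whole transcriptome the chambers differed widely. Of the 12541 genes, limma called 6487 at an adjusted p under 0.05 (51.7%), 4665 of them higher in atrium (37.2%) and 1822 lower (14.5%). The libraries did not overlap, with every atrium library above every V library, in 44.2% of genes, and below in 17.5%. The split depended on scale: the median gene was 0.21 higher in atrium on the log2 scale as deposited, and calls higher in atrium were 71.9% of all calls. After median-ratio scaling 47.1% of genes were called and 48.9% of calls were higher (2887 higher, 23.0% of genes, and 3021 lower, 24.1%). After quantile normalization 44.4% were called and again 48.9% of calls were higher (2718 higher, 21.7%, and 2844 lower, 22.7%). Calls that held under all 3 scalings numbered 2235 higher and 1741 lower. Of these, 667 were higher and 730 lower by more than 1 relative to the median gene, and 165 higher and 120 lower by more than 2. In these bulk libraries, fewer cells of a type and less RNA per cell cannot be told apart.

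Below, a log2 difference is atrium minus V on log2(FPKM + 1), less the 0.21 of the median gene, with its SE from limma over 3 libraries per chamber. The median over all genes tested is thus 0, and the adjusted p is that of the values as deposited. The difference understates the change of genes with low values. Counts of list members stand beside 37.2% of all genes called higher and 14.5% called lower as deposited, and 17.8% and 13.9% under all 3 scalings.

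**Figure D1:**
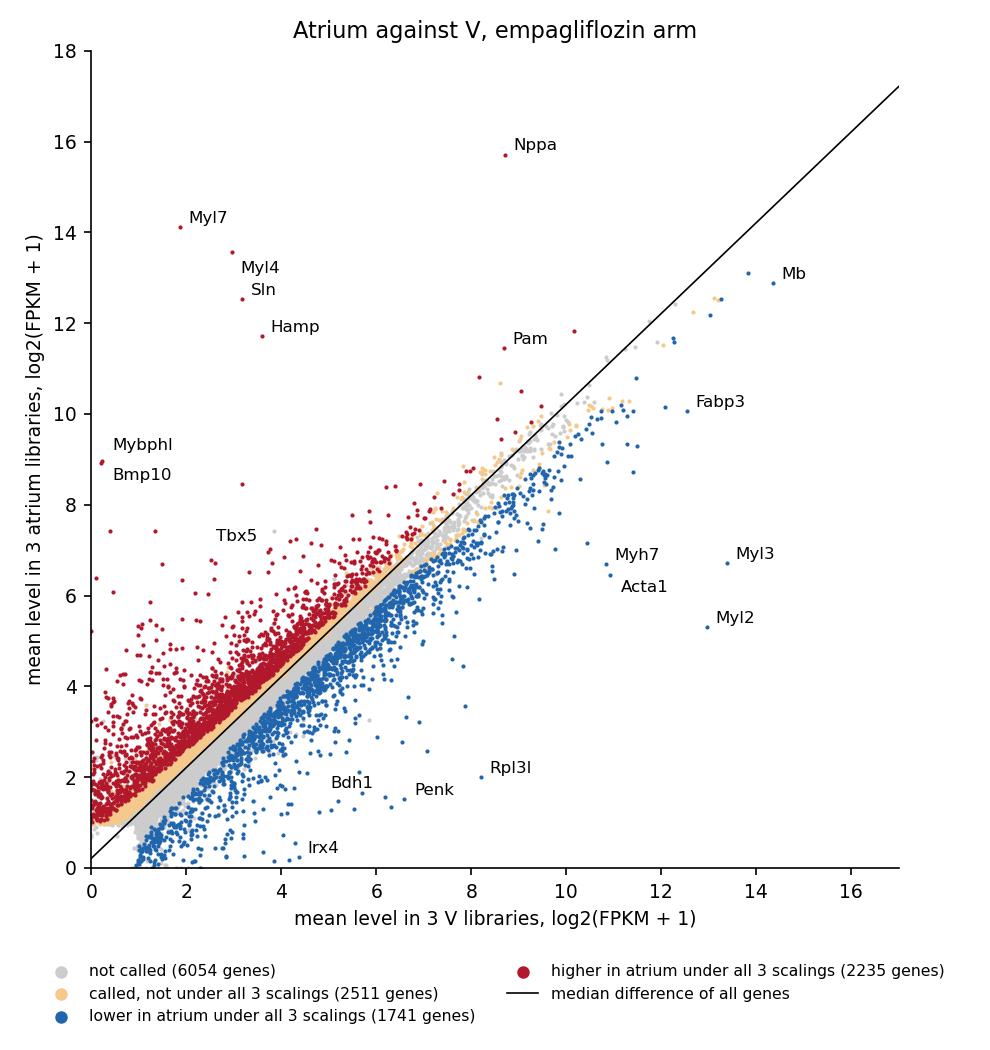
Mean level of each of the 12541 genes in 3 V libraries (x axis) and in 3 atrium libraries (y axis), both as log2(FPKM + 1), with the line at the median difference of 0.21. Red and blue points are the 2235 and 1741 genes called higher and lower in atrium under all 3 scalings, orange points the 2511 called as deposited but not under all 3. Myl7, Myl4, Sln, Nppa and Hamp lie far above the line, and Myl2, Myl3, Rpl3l and Bdh1 far below it.

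The myosin light chains had the largest differences in both directions. Myl7, the atrial regulatory light chain, measured 17644, 18713 and 17036 FPKM in the atrium libraries and 11.2, 1.13 and 0.87 FPKM in V (log2 difference 12.04 ± 0.66, adjusted p = 5.6e-05). Its ventricular counterpart Myl2 measured 62.1, 7.38 and 115 FPKM in atrium and 8192, 8579.9 and 7379 FPKM in V (-7.88 ± 0.87, adjusted p = 0.000609). The residue of each in the other chamber varied between libraries: atrium 2 held the least Myl2, atrium 3 the most, and V 1 held more Myl7 than V 2 and V 3. As a share of Myl7 and Myl2 together, Myl7 made up 99.65, 99.96 and 99.3% in atrium and 0.136, 0.0132 and 0.0118% in V. The essential light chains behaved alike, with Myl4 at 11589.5, 13944 and 10908 FPKM in atrium and 22.3, 5.73 and 2.06 FPKM in V (10.38 ± 0.65, adjusted p = 7.46e-05) and Myl3 at 107, 43.2 and 245 FPKM in atrium and 9927, 11333 and 10716 FPKM in V (-6.87 ± 0.55, adjusted p = 0.000205). Atrium 3 again held the most of the ventricular form, 2.29% of its V mean, against 0.406% in atrium 2.

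Myosin-binding protein H-like, Mybphl, a thick filament protein of atrium and conduction tissue, measured 489.8, 533 and 484 FPKM in atrium and 0.48, 0.03 and 0.06 FPKM in V (8.53 ± 0.15, adjusted p = 5.44e-07). The 3 atrium values lay close together, and no V library reached 1 FPKM. Its vehicle V values were 1.38, 0.89 and 1.21 FPKM. Myl7 and Myl4 were higher in the vehicle V libraries too, at 35.7, 28.4 and 24.4 FPKM for Myl7 and 55.4, 43.1 and 37.3 FPKM for Myl4, than in the empagliflozin V libraries, a difference that was not tested.

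**Figure D2:**
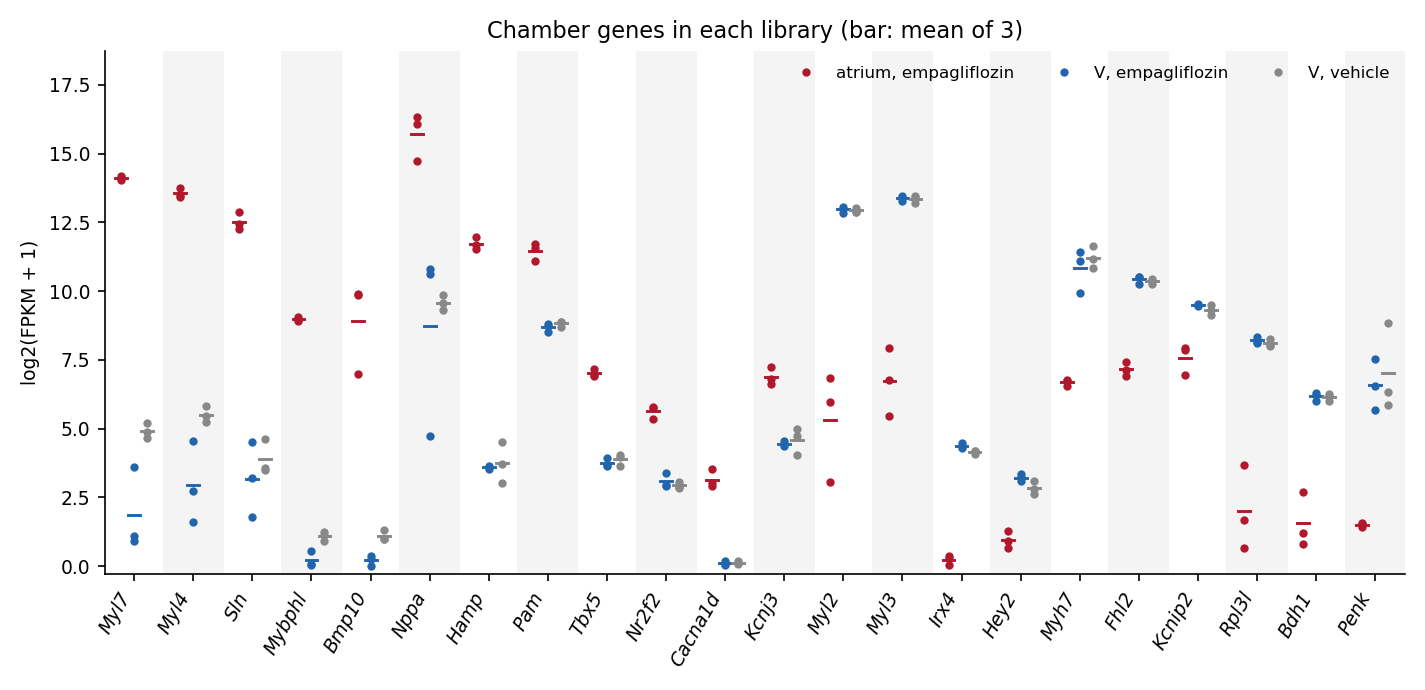
Levels of 22 chamber genes in each library, as log2(FPKM + 1), for atrium (red) and V (blue) of the empagliflozin arm and V of the vehicle arm (grey), with bars at the mean of 3 libraries. Genes from Myl7 to Kcnj3 lie higher in atrium and those from Myl2 to Penk lower, and the grey V points lie near the blue ones except for genes such as Myl7, Myl4 and Mybphl, where they lie higher.

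Of the heavy chain and actin genes, Myh7, Acta1 and Actc1 were lower in atrium, and Myh6 did not pass the test. Myh7, the slow myosin heavy chain, measured 105, 92.6 and 109 FPKM in atrium and 2211, 2766 and 982 FPKM in V (-4.35 ± 0.35, adjusted p = 0.000231). V 3 had the least of the V libraries and still stood far above every atrium library. Myh6 was abundant in both chambers, at 6477, 4936 and 5263 FPKM in atrium and 5151, 3967 and 6164 FPKM in V (-0.07 ± 0.20, adjusted p = 0.577), with overlapping libraries. Myh7 therefore made up 1.6, 1.84 and 2.02% of the pair in atrium and 30.0, 41.1 and 13.7% in V. Acta1, the skeletal alpha-actin, measured 64, 133 and 75.8 FPKM in atrium and 3576, 3485 and 584 FPKM in V (-4.68 ± 0.70, adjusted p = 0.00211), again lowest in V 3 within V. Actc1, the cardiac alpha-actin, was lower in atrium at 7945, 9591 and 8837 against 15358, 16063 and 12578 FPKM (-0.95 ± 0.16, adjusted p = 0.00803), a call lost without the filter on low values. How the counting split reads between such near-identical pairs is not described, so the shares within Myh6 and Myh7 and within Acta1 and Actc1 are uncertain.

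Of the 40 sarcomere and Z disc genes, all tested, 10 were higher and 14 lower in atrium as deposited, 9 and 9 of these under all 3 scalings, with a median difference of -0.27. The thin filament genes were moderately lower: Tnnt2 stood at 6030.3 ± 45.2 FPKM (mean ± SD, n = 3) in atrium and 8838 ± 584 in V, and Tnni3, cardiac troponin I, at 5884 ± 525 and 9356 ± 317. Both calls were lost after quantile normalization (adjusted p = 0.141 and 0.0681). Tpm1, alpha-tropomyosin, kept its call under all 3 scalings, at 5934 ± 154 FPKM in atrium and 9741 ± 496 in V (-0.93 ± 0.12, adjusted p = 0.00284), but not without the filter on low values. Several minor isoforms went the other way. Tpm2, beta-tropomyosin, measured 181, 141 and 124 FPKM in atrium and 19.1, 17.3 and 15.1 in V (2.82 ± 0.15, adjusted p = 4.86e-05). Tnni1, the slow skeletal troponin I of the fetal heart, measured 19.9, 15.2 and 15.1 FPKM in atrium and 1.16, 0.64 and 1.32 FPKM in V (2.91 ± 0.17, adjusted p = 5.81e-05), and made up 0.288% of Tnni1 and Tnni3 together in atrium against 0.0111% in V. Myl1, a skeletal and embryonic light chain, measured 13.2, 22.8 and 19.8 FPKM in atrium and 0.58, 0.69 and 0.31 FPKM in V (3.44 ± 0.21, adjusted p = 5.91e-05). The chambers did not overlap in any of these 3 genes. Nexn, nexilin, an actin-binding Z disc protein, and Nebl, nebulette, were also higher in atrium, by 1.55 ± 0.14 and 1.64 ± 0.12. Myh7b, a further slow myosin gene, was lower, at 2.93, 1.37 and 3.6 against 18.1, 13.9 and 13.7 FPKM (-2.41 ± 0.25, adjusted p = 0.000623). Ttn, titin, stood at 58.4, 43.8 and 47 FPKM in atrium and 43.3, 38.8 and 42.1 FPKM in V and did not pass the test (adjusted p = 0.115).

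An actin nucleator and stress proteins of the Z disc were lower in atrium too. Lmod3, an actin filament nucleator, measured 0.48, 0.63 and 4.95 FPKM in atrium and 28.9, 31.7 and 35.3 in V (-3.97 ± 0.50, adjusted p = 0.0011). Ankrd23, a stretch-responsive titin-binding protein, measured 1.49, 1.05 and 1.86 FPKM in atrium and 110.0, 86.9 and 9.24 FPKM in V (-4.46 ± 0.83, adjusted p = 0.00531), with V 3 far below V 1 and V 2 but above atrium. Fhl2, a LIM-domain protein of the sarcomere, measured 139, 119.6 and 173 FPKM in atrium and 1237, 1471 and 1469.9 FPKM in V (-3.49 ± 0.15, adjusted p = 3.24e-05). In all 3 genes atrium and V did not overlap. Xirp2, a Xin repeat protein placed on the ventricular list, was higher in atrium instead, at 31.9, 23 and 37.4 against 18.4, 15.5 and 9.57 FPKM (0.84 ± 0.26, adjusted p = 0.0124), while its vehicle V values, 33.7, 23.1 and 52.4 FPKM, overlapped those of atrium.

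Of the 19 atrial chamber genes, all tested, 17 were higher in atrium and none lower, 16 of them under all 3 scalings, with a median difference of 2.52. Of 13 ventricular chamber genes tested of 14, 11 were lower and 1, Xirp2, higher, all under all 3 scalings, with a median of -2.48. Both lists were drawn up as chamber genes with earlier results of these data known, so their direction is no independent evidence. The members that did not pass the test include Kcna5 and Gja1. Kcna5, the channel of the ultrarapid potassium current, stood at 0.88, 0.6 and 4.8 FPKM in atrium and 1.77, 1.65 and 4.76 FPKM in V (adjusted p = 0.524). Gja1, connexin 43, stood at 245, 257 and 174 FPKM in atrium and 204, 252 and 175 FPKM in V with overlapping libraries (adjusted p = 0.692).

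Nppa and the processing enzymes Corin and Pam were higher in atrium without overlap, and the difference of Nppb was smaller and less stable. Nppa, the precursor of atrial natriuretic peptide, measured 68778, 82195 and 27401 FPKM in atrium and 1578, 1801 and 25.3 FPKM in V (6.78 ± 1.56, adjusted p = 0.00873). It made up 11.5%, 12.5% and 4.64% of all FPKM of the atrium libraries and at most 0.285% of those of V. The lowest atrium library, atrium 3, exceeded the highest V library, and V 3 lay far below the other V libraries. The call was lost with atrium 1 and 3 left out together. Vehicle V libraries held 929.6, 760.5 and 632 FPKM. Nppb, the precursor of brain natriuretic peptide, measured 2267, 2201 and 889.5 FPKM in atrium and 383, 949 and 161 FPKM in V (1.87 ± 0.65, adjusted p = 0.0327). Its libraries overlapped, since V 2 exceeded atrium 3, and the call was lost after median-ratio scaling (adjusted p = 0.0612) and without any 1 of atrium 1, atrium 2, V 1 or V 3.

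Corin, the protease that cleaves the Nppa precursor, measured 153, 151 and 110.2 FPKM in atrium and 21.1, 28.2 and 35.7 FPKM in V (2.05 ± 0.21, adjusted p = 0.000287). Pam, the peptide-amidating enzyme and main membrane protein of atrial granules, measured 3324, 3039 and 2183 FPKM in atrium and 424, 452 and 362 FPKM in V (2.56 ± 0.18, adjusted p = 8.54e-05). Npr3, the clearance receptor for natriuretic peptides, measured 77.7, 76.6 and 47.9 FPKM in atrium and 5.27, 5.14 and 1.44 FPKM in V (3.67 ± 0.38, adjusted p = 0.000388). In all 3 genes every atrium library lay above every V library. The guanylyl cyclase receptors did not pass the test, with Npr1 at 8.78, 9.83 and 12.2 FPKM in atrium and 8.55, 8.39 and 8.71 FPKM in V and Npr2 at 12.3, 11 and 17.8 FPKM in atrium and 11.9, 12.2 and 12.7 FPKM in V. Of 16 genes of this list tested of 26, 10 were higher and 1 lower, 8 and 1 under all 3 scalings, with a median of 0.84. Higher genes included Adm, adrenomedullin (1.33 ± 0.10), and Cpe, carboxypeptidase E (0.54 ± 0.07), and the lower one was the convertase Pcsk6 (-1.32 ± 0.11). Of the 10 genes not tested, among them the neuroendocrine granins Chga and Chgb, 9 stayed under 1 FPKM in all 6 libraries.

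Hamp, the precursor of hepcidin, the hormone that limits iron export, was among the most different genes. It measured 3966, 3281 and 2937 FPKM in atrium and 10.6, 11.3 and 11.6 FPKM in V (7.90 ± 0.12, adjusted p = 4.2e-07). The V libraries agreed closely with each other, and the vehicle V libraries held 22.1, 7.22 and 12.3 FPKM. Alb and Apob, genes of the organ that makes most hepcidin, reached 2.66 and 0 FPKM at most in atrium. Ttr, of the same hepatocyte list, had a mean of 4.76 on log2(FPKM + 1) in atrium and 4.63 in V. The whole list of 10 genes summed to 28.25 to 36.7 FPKM in atrium and 34.28 to 38.43 FPKM in V. Where the Hamp transcripts came from was not tested. Rxfp1, the relaxin receptor, measured 83.5, 70.9 and 49.6 FPKM in atrium and 0.57, 0.43 and 0.13 FPKM in V (5.42 ± 0.21, adjusted p = 1.47e-05). Penk, the enkephalin precursor, was the reverse, at 1.67, 1.92 and 1.98 against 92.2, 186 and 50.0 FPKM (-5.29 ± 0.42, adjusted p = 0.000205). Its V libraries differed among themselves, with V 2 the highest, and vehicle V held 456, 57.3 and 78.9 FPKM, yet every V value was far above every atrium value.

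Among calcium handling genes both inhibitors of the pump differed, in opposite directions, while the pump and the release channel did not pass the test. Sln, sarcolipin, an inhibitor of the calcium pump, measured 5611, 7528 and 4909.6 FPKM in atrium and 21.9, 8.24 and 2.47 FPKM in V (9.15 ± 0.61, adjusted p = 9.6e-05). Pln, phospholamban, the other inhibitor, measured 1009, 883 and 1085 FPKM in atrium and 2385, 2569 and 2526 FPKM in V (-1.54 ± 0.11, adjusted p = 0.00021). Sln made up 84.8, 89.5 and 81.9% of both in atrium and 0.912, 0.32 and 0.0977% in V. The pump itself, Atp2a2, stood at 3053, 2469 and 2989.9 FPKM in atrium and 2756, 2497 and 3144 FPKM in V (adjusted p = 0.916). The release channel Ryr2 stood at 131, 99.2 and 112 FPKM in atrium and 97.7, 90.7 and 106 FPKM in V (adjusted p = 0.182), and the calcium store protein Casq2 at 583, 553 and 654 FPKM in atrium and 559.9, 602 and 537 FPKM in V (adjusted p = 0.559). None of these 3 passed the test, and their libraries overlapped.

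The low-voltage calcium channels were higher in atrium. Cacna1g, the pore of the T-type channel Cav3.1, measured 101, 77.3 and 65.9 FPKM in atrium and 5.66, 2.47 and 1.26 in V (4.23 ± 0.37, adjusted p = 0.000222). Cacna1h, of Cav3.2, measured 19.8, 16.3 and 14.1 FPKM in atrium and 1.29, 1.32 and 1.71 FPKM in V (2.64 ± 0.14, adjusted p = 4.84e-05). Cacna1d, the L-type channel that opens at lower voltage, measured 10.5, 7.09 and 6.56 FPKM in atrium and 0.06, 0.04 and 0.14 FPKM in V (2.83 ± 0.18, adjusted p = 6.34e-05). No V library came near an atrium library in any of the 3. The main L-type pore Cacna1c stood at 15.5, 11.7 and 13.6 FPKM in atrium and 17.5, 15.4 and 19.6 FPKM in V and did not pass the test (adjusted p = 0.0605), though it did without atrium 1. Of its auxiliary subunits, Cacnb2 was lower in atrium (-0.72 ± 0.10, adjusted p = 0.00563), and Cacna2d1 and Cacna2d2 were higher, by 1.04 ± 0.08 and 2.48 ± 0.16. Jph2, junctophilin, which ties the calcium store to the T-tubule, was lower, at 111, 106 and 122 against 184, 184 and 199 FPKM (-0.95 ± 0.08, adjusted p = 0.000634). Trdn, triadin, and the inositol trisphosphate receptor Itpr1 were higher, by 2.15 ± 0.19 and 1.68 ± 0.17. Of 27 calcium genes tested of 28, 13 were higher and 5 lower, 11 and 5 under all 3 scalings, with a median of 0.25.

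Potassium channel genes differed in both directions. The acetylcholine-activated channel is built from Kcnj3, which measured 150.4, 109.7 and 96.9 FPKM in atrium and 20.7, 19.9 and 22.4 FPKM in V (2.21 ± 0.16, adjusted p = 9.65e-05), and Kcnj5, which measured 103, 85.4 and 90.6 FPKM in atrium and 18.1, 16.6 and 26.1 FPKM in V (1.95 ± 0.17, adjusted p = 0.000174). Kcnk2, the stretch-gated channel TREK-1, measured 38.1, 44.6 and 33.2 FPKM in atrium and 5.42, 6.03 and 9.66 FPKM in V (2.12 ± 0.20, adjusted p = 0.000254). All 3 were higher in every atrium library than in any V library. On the other side, Kcnip2, a subunit of the transient outward current, measured 233, 243 and 122 FPKM in atrium and 748, 722 and 702 FPKM in V (-2.13 ± 0.25, adjusted p = 0.00106). Its pore subunits parted, with Kcnd2 lower in atrium (-1.33 ± 0.28, adjusted p = 0.0144) and Kcnd3 higher (0.98 ± 0.19, adjusted p = 0.0023). Kcne1, the slow delayed rectifier subunit, was also lower and measured 0.12, 0.35 and 0.39 FPKM in atrium and 7.44, 20.1 and 9.19 FPKM in V (-3.46 ± 0.33, adjusted p = 0.000403).

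The inward rectifiers parted as well. Kcnj2 was lower in atrium, at 3.57, 3.24 and 3.23 against 5.44, 5.63 and 6.1 FPKM (-0.84 ± 0.10, adjusted p = 0.00193), and Kcnj12 higher, at 16.9, 15.6 and 20.2 against 6.87, 6.97 and 8.9 FPKM (0.90 ± 0.13, adjusted p = 0.000792). Kcnh2, of the rapid delayed rectifier, was higher (0.88 ± 0.15, adjusted p = 0.00113), and Kcnq1, of the slow one, did not pass, at 27.6, 26.4 and 27.1 FPKM in atrium and 29.6, 26.1 and 34 FPKM in V (adjusted p = 0.32). Of the channel closed by ATP, the pore Kcnj11 did not pass (adjusted p = 0.085), the atrial sulfonylurea receptor Abcc8 was higher (0.35 ± 0.09, adjusted p = 0.0022), and the receptor Abcc9 overlapped between chambers (adjusted p = 0.277) and passed without atrium 3. Of 24 potassium channel genes tested of 26, 10 were higher and 8 lower, 8 and 8 under all 3 scalings.

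Among pacemaker, sodium and gap junction channels, both pacemaker genes moved, in opposite directions. Hcn4, the main channel of the sinoatrial node, measured 17.9, 13.8 and 39.1 FPKM in atrium and 1.05, 2.61 and 3.16 FPKM in V (2.63 ± 0.41, adjusted p = 0.00153). Hcn2 measured 7.13, 7.11 and 11.3 FPKM in atrium and 121, 125 and 110.4 FPKM in V (-3.89 ± 0.17, adjusted p = 3.25e-05). Hcn4 was highest in atrium 3, the vehicle V libraries held it at 18.4, 0.64 and 3.09 FPKM, and Hcn2 kept the chambers apart in every library. Scn4b, a beta subunit of the sodium channel, was lower and measured 0.97, 0.31 and 7.26 FPKM in atrium and 29.3, 31.4 and 50.1 in V (-3.94 ± 0.64, adjusted p = 0.00299), again highest in atrium 3 within atrium. Gjc1, connexin 45, was higher (0.94 ± 0.12, adjusted p = 0.000482). Gja5, connexin 40, was higher as deposited, at 6.6, 4.97 and 6.11 against 2.6, 3.92 and 4.03 FPKM (adjusted p = 0.0179), a call lost under both other scalings and without atrium 1. Of 10 genes of this list tested of 13, 5 were higher and 2 lower, 3 and 2 under all 3 scalings.

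Some transcription factors known for the chamber programs differed clearly, on lists drawn up with earlier results of these data known. Tbx5 measured 141, 121 and 123 FPKM in atrium and 11.9, 14.5 and 11.7 FPKM in V (3.04 ± 0.11, adjusted p = 7.83e-06). Nr2f2, COUP-TFII, measured 53.4, 53.8 and 39.9 FPKM in atrium and 9.4, 6.64 and 6.66 FPKM in V (2.34 ± 0.17, adjusted p = 9.7e-05), and Nr2f1, COUP-TFI, 7.98, 7.48 and 6.42 FPKM in atrium and 1.5, 2.43 and 1.63 FPKM in V (1.34 ± 0.15, adjusted p = 0.000372). Etv1, a factor of fast-conducting atrial and Purkinje cells, measured 19.8, 18.6 and 18.5 FPKM in atrium and 1.26, 1.55 and 1.35 FPKM in V (2.85 ± 0.09, adjusted p = 5.79e-06). In these 4 genes the atrium libraries lay together and above all V libraries. Irx4 was the reverse, at 0.24, 0.03 and 0.29 FPKM in atrium and 21.2, 19.8 and 18.6 in V (-4.35 ± 0.12, adjusted p = 5.75e-06), and so was Hey2, at 0.88, 0.6 and 1.43 FPKM in atrium and 9.21, 8.47 and 7.46 FPKM in V (-2.48 ± 0.17, adjusted p = 0.000166).

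Irx3 and Irx5, neighbours of the Iroquois family known for conduction and repolarization in the ventricle wall, were lower in atrium, but less evenly. Irx3 measured 0.38, 0.57 and 1.19 FPKM in atrium and 7.01, 17.4 and 4.28 in V (-2.66 ± 0.44, adjusted p = 0.00352), and Irx5 1.85, 2.94 and 0.44 FPKM in atrium and 4.8, 14.1 and 4.37 FPKM in V (-1.83 ± 0.49, adjusted p = 0.0291). V 2 was the highest in both, and the Irx5 call was lost without atrium 1, atrium 3 or V 2. Tbx20, Mef2a and Gata6 were higher in atrium, by 1.33 ± 0.16, 0.76 ± 0.08 and 0.39 ± 0.14. Meis2 and the muscle methyltransferase Smyd1 were lower, with log2 differences of -1.03 ± 0.18 and -0.74 ± 0.08. The general cardiac factors did not pass the test and overlapped: Nkx2-5 stood at 146, 204 and 137 FPKM in atrium and 113, 139 and 142 FPKM in V, Gata4 at 68, 64.9 and 60.4 FPKM in atrium and 58.2, 70.3 and 62.4 FPKM in V, and Gata5 at 35.7, 38.7 and 31.8 FPKM in atrium and 33.7, 32.5 and 40.0 FPKM in V. Of 31 factors tested of 36, 12 were higher and 6 lower, 9 and 6 under all 3 scalings. The counts as deposited stand near the 37.2% of all genes called higher and the 14.5% called lower. Under all 3 scalings the shares of all genes were 17.8% and 13.9%.

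Receptors for autonomic and hormonal input differed in both directions. Chrm2, the muscarinic receptor of the vagus, measured 84.2, 65.6 and 60.4 FPKM in atrium and 16.1, 15.2 and 18.8 FPKM in V (1.79 ± 0.14, adjusted p = 0.000127). Adora1, the adenosine A1 receptor, measured 17.8, 19.5 and 14.5 FPKM in atrium and 5.5, 4.76 and 8.94 FPKM in V (1.12 ± 0.21, adjusted p = 0.00233). Gnao1, a G protein subunit that such receptors use, measured 136, 104 and 105 FPKM in atrium and 20.1, 16.1 and 11.8 FPKM in V (2.58 ± 0.20, adjusted p = 0.000125). With Kcnj3 and Kcnj5, these members of 1 pathway were all higher in every atrium library than in any V library, as were 44.2% of all genes tested. Adora2a, another adenosine receptor of the list, was lower (-1.40, adjusted p = 0.00153). The lists were chosen with earlier results of these data known, so a shared direction of members is no independent evidence. Rgs6, which shortens vagal signals, was higher in atrium as well (1.51 ± 0.19, adjusted p = 0.000612), and Rgs4 lower (-1.07 ± 0.22, adjusted p = 0.0157), with the Rgs4 call lost without V 2. The alpha-1 adrenergic receptors were lower: Adra1b measured 23.7, 23.7 and 25.8 FPKM in atrium and 44.6, 52 and 58.3 in V (-1.26 ± 0.11, adjusted p = 0.00046), and Adra1a and Adra1d differed by -0.87 ± 0.19 and -1.99 ± 0.34. The Adra1a call was lost without atrium 2, atrium 3 or V 3. Adrb1, the main beta receptor, was higher, at 26.9, 25.3 and 26.9 against 17.1, 15.8 and 18.9 FPKM (0.37 ± 0.09, adjusted p = 0.00188), and the endothelin receptor Ednra too (0.96 ± 0.12, adjusted p = 0.000406). Of 20 receptor and G protein genes tested of 26, 11 were higher and 5 lower, 9 and 5 under all 3 scalings, with a median of 0.31.

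Genes of energy metabolism were lower in atrium almost as a block. In the respiratory chain, 41 of 44 listed genes were tested and 39 were lower, 30 of them under all 3 scalings, with none higher and a median difference of -1.06. In the tricarboxylic acid cycle, 18 of 21 were lower, 16 under all 3 scalings, with a median of -1.07. In fatty acid uptake and oxidation, 28 of 30 tested were lower, 26 under all 3 scalings, with a median of -1.67. Without atrium 3, the atrium library with the most Myl2 and Myl3, the lower counts of these 3 lists were 39, 19 and 28. Mb, myoglobin, the most abundant transcript of V, measured 6607, 7982 and 8219.7 FPKM in atrium and 19867, 22254 and 20455 FPKM in V (-1.67 ± 0.15, adjusted p = 0.000452).

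The fatty acid genes had the lowest median of these 3 lists. Fabp3, the heart fatty acid binding protein, measured 848, 948 and 1523 FPKM in atrium and 5529, 5961 and 6340.5 FPKM in V (-2.68 ± 0.22, adjusted p = 0.000267). Acaa2, the last thiolase of the beta-oxidation spiral, measured 131, 106 and 153 FPKM in atrium and 801, 829 and 999 FPKM in V (-2.97 ± 0.15, adjusted p = 5.88e-05), and Acads, the short-chain dehydrogenase, 53.7, 52.9 and 76.2 FPKM in atrium and 265, 294 and 293 FPKM in V (-2.43 ± 0.15, adjusted p = 0.000103). Every atrium library lay below every V library in each. Lpl, lipoprotein lipase, measured 210.0, 135 and 398 FPKM in atrium and 831, 906 and 1052 FPKM in V (-2.25 ± 0.36, adjusted p = 0.00324) and was highest within atrium in atrium 3. Cpt1b, the muscle carnitine palmitoyltransferase at the entry to oxidation, differed least among the called genes, at 257, 243 and 224 FPKM in atrium and 342, 341 and 356 FPKM in V (-0.73 ± 0.08, adjusted p = 0.00216), and its call was lost after quantile normalization (adjusted p = 0.0545). Its liver-type form Cpt1a stood at 15.3, 13.1 and 22.8 FPKM in atrium and 18.9, 15.1 and 26.3 FPKM in V and did not pass (adjusted p = 0.465). Lower genes also included Cd36, the fatty acid transporter (-1.45 ± 0.20), and Ucp3, a mitochondrial carrier (-2.53 ± 0.30).

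Within the respiratory chain the largest difference was that of Cox7a1, the muscle form of a cytochrome oxidase subunit, at 2.39, 2.04 and 6.41 FPKM in atrium and 22.4, 22.7 and 21.9 in V (-2.67 ± 0.31, adjusted p = 0.000962). More typical of the list were Sdhb of complex II, at 328, 376 and 417 FPKM in atrium and 936, 993 and 927 FPKM in V (-1.56 ± 0.11, adjusted p = 0.000192), Uqcrc1 of complex III (-1.55 ± 0.10), Ndufv1 of complex I (-1.32 ± 0.08) and Atp5f1c of ATP synthase (-1.08 ± 0.10). Cox6a2, the muscle form of another oxidase subunit and the most abundant of the list, measured 4266, 4897 and 4709.9 FPKM in atrium and 8224, 8629.8 and 8105 FPKM in V (-1.06 ± 0.12, adjusted p = 0.00145). The chambers did not overlap in any of these genes. In the tricarboxylic acid cycle, Idh2, a mitochondrial isocitrate dehydrogenase, measured 922, 833 and 963 FPKM in atrium and 2031, 2134 and 2193 FPKM in V (-1.44 ± 0.10, adjusted p = 0.000195), and Ogdh of the oxoglutarate dehydrogenase complex differed by -1.55 ± 0.13. Pdk4, which shuts off pyruvate oxidation, was lower in atrium too, at 44.9, 16.5 and 38.3 against 66.8, 71.2 and 99.81 FPKM (-1.53 ± 0.36, adjusted p = 0.0187), a call lost without V 3.

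**Figure D3:**
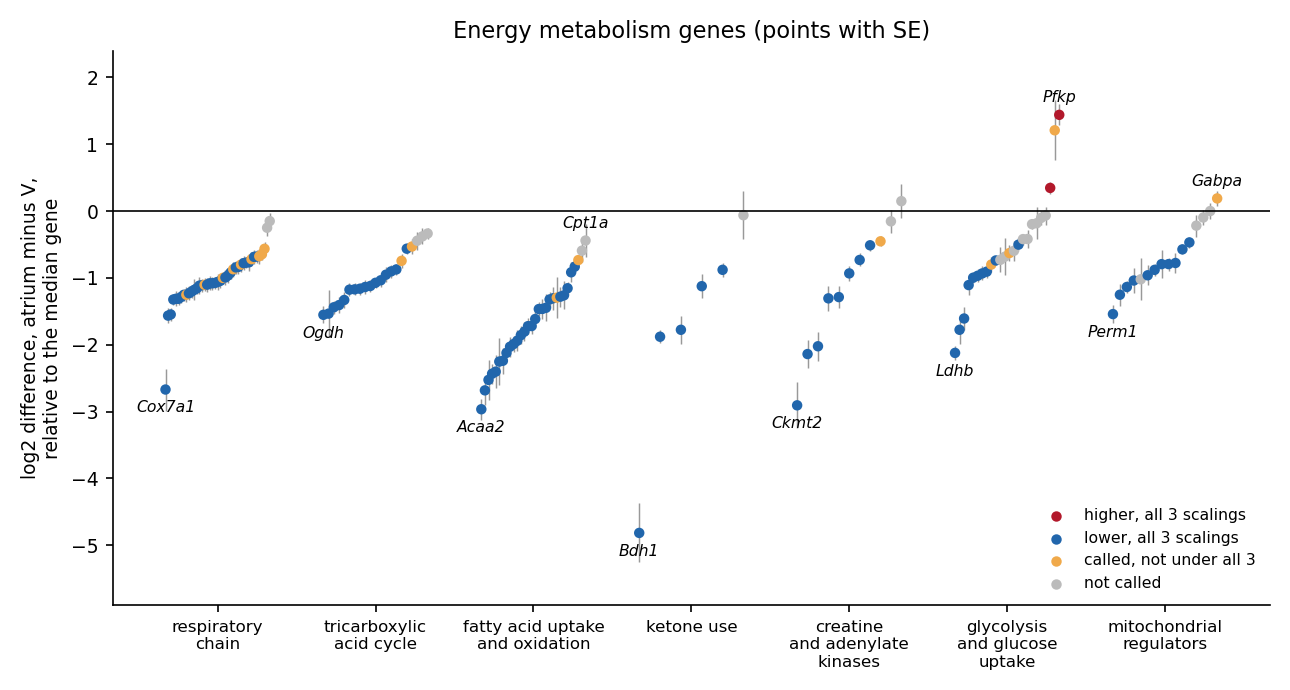
Log2 difference of each tested gene of 7 metabolic lists, atrium minus V, relative to the median gene (line at 0), with bars of 1 SE. Blue points are lower in atrium under all 3 scalings, red ones higher, orange ones called but not under all 3, and grey ones not called. Most points lie below 0, and Bdh1 lies lowest, at -4.82.

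Ketone body use stood out through 1 gene. Bdh1, the hydroxybutyrate dehydrogenase of mitochondria, measured 1.32, 0.75 and 5.48 FPKM in atrium and 63.6, 77.5 and 73.6 FPKM in V (-4.82 ± 0.44, adjusted p = 0.000344). The atrium values were 1.05% to 7.66% of the V mean, the highest in atrium 3. Oxct1, the transferase that activates ketone bodies, was lower by less, at 303, 249.6 and 406 against 573, 658 and 543 FPKM (-1.12 ± 0.18, adjusted p = 0.00539). The monocarboxylate transporter Slc16a1 differed by -1.78 ± 0.21. In vehicle V, Bdh1 stood at 62.9, 71.4 and 75.2 FPKM, over a similar range as in V under empagliflozin. Of 6 ketone genes 5 were lower, all under all 3 scalings.

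Glucose genes were mixed. Of 24 tested of 25, 12 were lower and 3 higher, 10 and 2 under all 3 scalings, with a median of -0.65. Ldhb, the heart-type lactate dehydrogenase, measured 1132, 1095 and 1205 FPKM in atrium and 4346, 4507 and 4057 FPKM in V (-2.12 ± 0.10, adjusted p = 5.27e-05). Slc2a4, the insulin-responsive glucose transporter GLUT4, measured 127, 109 and 154 FPKM in atrium and 229, 219 and 275 FPKM in V (-1.11 ± 0.15, adjusted p = 0.0026). Pfkp, the platelet-type phosphofructokinase, was higher in atrium, at 57.9, 55 and 39.8 against 17.4, 14.2 and 14.5 FPKM (1.44 ± 0.16, adjusted p = 0.00032), while Pfkm, the muscle type, was lower, at 185, 179 and 193 against 297, 277 and 351 FPKM (-0.93 ± 0.10, adjusted p = 0.00156). The phosphofructokinase forms thus differed in opposite directions, without overlap between chambers in either.

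Most genes of energy transfer were lower as well. Ckmt2, the mitochondrial creatine kinase, measured 283, 342 and 769 FPKM in atrium and 2695, 2736 and 2748 FPKM in V (-2.91 ± 0.34, adjusted p = 0.000941). Ckm, the muscle form, measured 507, 588 and 922 FPKM in atrium and 2412, 2356 and 2666 FPKM in V (-2.14 ± 0.22, adjusted p = 0.00059). Ckb, the brain form, overlapped between chambers, at 150.2, 154 and 116 FPKM in atrium and 151, 149.6 and 105 FPKM in V (adjusted p = 0.794), and made up 18.3% of Ckb and Ckm together in atrium and 5.22% in V. Of the 11 creatine and adenylate kinase genes 9 were lower, 8 under all 3 scalings. Among regulators of mitochondrial genes, 11 of 16 were lower under all 3 scalings. With 1 library left out, 8 to 10 were lower. The 1 higher gene, Gabpa, was higher only as deposited, a call lost without atrium 1, V 1 or V 2. Perm1, a muscle partner of the estrogen-related receptors, measured 42.8, 36.5 and 48.8 FPKM in atrium and 96.4, 105 and 125 FPKM in V (-1.54 ± 0.14, adjusted p = 0.000432). Ppara and Ppard, receptors for fatty acids, and the orphan receptor Esrra were lower, with log2 differences of -1.04 ± 0.18, -1.25 ± 0.16 and -0.88 ± 0.09, on the same scale.

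Cell type markers differed beside the muscle genes, and their part in the muscle differences was not tested. Of the 8 cardiomyocyte markers, 4 were lower in atrium as deposited, 1 of them (Actc1) under all 3 scalings, with a median of -0.48, and their mean level was 10.38, 10.25 and 10.27 on log2(FPKM + 1) in atrium and 10.55, 10.50 and 10.56 in V. Of 11 markers of epicardium and mesothelium, the covering of the heart, 10 were higher in atrium under all 3 scalings, with a median of 2.25 and summed levels of 134 to 178 FPKM in atrium and 10.9 to 23.8 FPKM in V. Msln, mesothelin, measured 47.2, 30.6 and 44.8 FPKM in atrium and 3.55, 0.04 and 0.95 FPKM in V (4.08 ± 0.49, adjusted p = 0.00065), and Upk1b, a uroplakin of mesothelium, 16.9, 15.5 and 16.6 FPKM in atrium and 1.26, 0.1 and 0.22 FPKM in V (3.37 ± 0.26, adjusted p = 0.000145). Within V, V 1 held the most of both, still below every atrium library. Wt1, a factor of epicardial cells, stood at 6.41, 4.57 and 9.7 FPKM in atrium and 6.36, 6.12 and 5.2 FPKM in V and did not pass (adjusted p = 0.611).

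Blood vessel markers differed in both directions. Of 7 endocardial and venous markers tested of 8, 4 were higher in atrium under all 3 scalings and none lower, with a median of 1.94. Vwf, von Willebrand factor, measured 72.6, 80.6 and 46.4 FPKM in atrium and 15.7, 13.3 and 12.4 FPKM in V (1.94 ± 0.21, adjusted p = 0.000334), and Plvap, a protein of endothelial pores, 39.7, 86.2 and 18.3 FPKM in atrium and 2.29, 1.31 and 1.22 FPKM in V (3.78 ± 0.50, adjusted p = 0.000875). Of 6 capillary markers tested of 7, 5 were lower, 4 under all 3 scalings, with a median of -1.28, among them Rgcc at 24.6, 17.3 and 47.7 against 78.1, 70.2 and 84.6 FPKM (-1.68 ± 0.32, adjusted p = 0.00843) and Aplnr, the apelin receptor (-1.04 ± 0.12, adjusted p = 0.00156). Of 7 pericyte markers 5 were lower under all 3 scalings, 3 of them without V 1 or without V 2 and with 1 higher without atrium 3, with a median of -1.41, among them Kcnj8 at 4.92, 5.23 and 7.48 against 14.7, 14.1 and 14.9 FPKM (-1.41 ± 0.14, adjusted p = 0.000795). Cd36 and Fabp4 of the capillary list are also made by heart muscle and fat. Of the general endothelial genes, Pecam1 stood at 76.2, 96 and 68.9 FPKM in atrium and 73.3, 86.3 and 64 FPKM in V (adjusted p = 0.594), and of 10 markers 1 was higher and 2 were lower, counts of 2 higher without atrium 3 and 1 lower without V 1 or V 2. After median-ratio scaling, and likewise after quantile normalization, 5 of the 10 were lower.

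**Figure D4:**
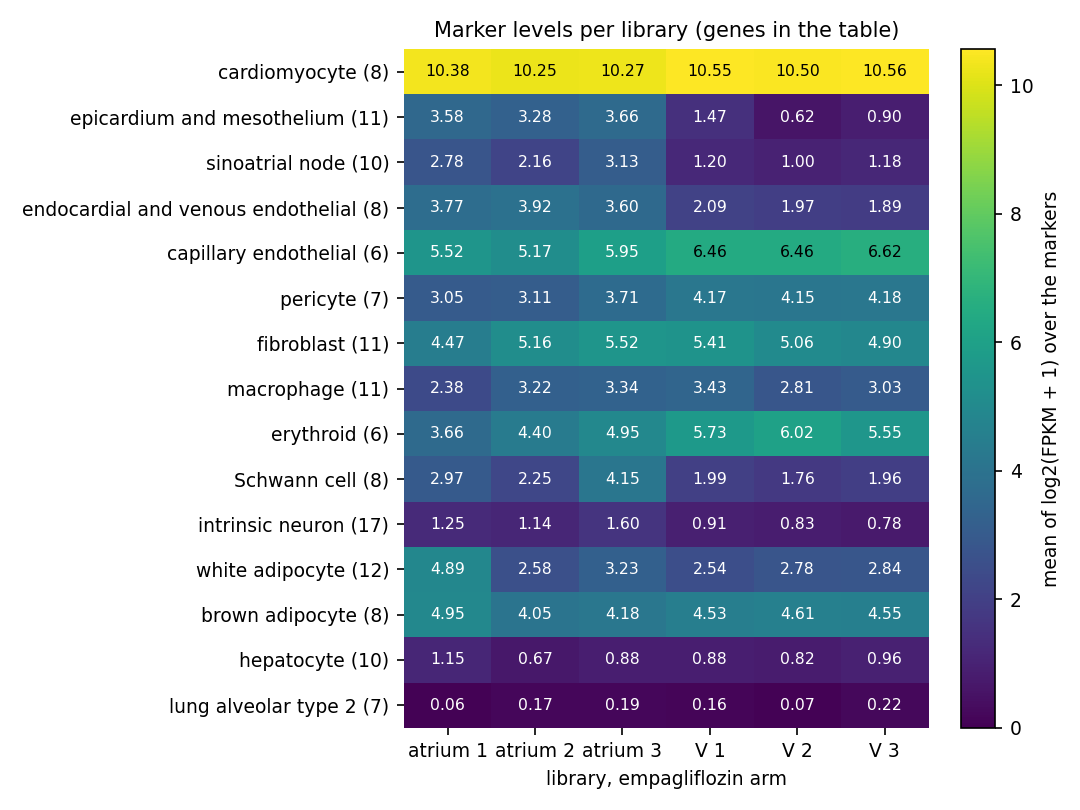
Mean of log2(FPKM + 1) over the markers of 15 cell types (genes in the table in brackets) in each of the 6 libraries, with the value written in each field. Epicardial, sinoatrial and endocardial markers are higher in the atrium columns, capillary, pericyte and erythroid markers in the V columns, and white adipocyte markers are highest in atrium 1 and Schwann cell markers in atrium 3.

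Of 11 fibroblast markers and 10 macrophage markers tested of 11, limma called none, with Dcn, decorin, at 123, 356 and 327 FPKM in atrium and 238, 219 and 225 FPKM in V (adjusted p = 0.847). After median-ratio scaling 1 fibroblast marker was lower, and after quantile normalization 2. At an unadjusted p under 0.05 the counts were 1 fibroblast marker and 0 macrophage markers. Without atrium 1 the fibroblast list held 2 calls higher in atrium, Dcn among them, and without atrium 3 or V 3 it held 1 lower. The macrophage list held 1 higher without atrium 1 and 1 lower without atrium 3. Of 5 erythroid genes tested of 9, all 5 were lower, 4 under all 3 scalings and 3 without V 2, with Hbb, beta-globin, at 80.8, 219 and 311 against 707, 987 and 524 FPKM (-2.22 ± 0.48, adjusted p = 0.012). Reads of near-identical globin genes may be split between them.

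Sinoatrial markers were higher in atrium in 6 of 8 tested of 10, under all 3 scalings, with a median of 2.05. Shox2, a factor of the node, measured 9.99, 1.83 and 40.1 FPKM in atrium and 0.23, 0.11 and 0.51 in V (2.88 ± 0.85, adjusted p = 0.0202), and atrium 3 held most of it. Its call was lost without atrium 1, V 1 or V 2. Vsnl1, visinin-like 1, was even across atrium, at 43.9, 38.5 and 50.3 against 3.42, 1.69 and 3.54 FPKM (3.36 ± 0.21, adjusted p = 6.85e-05). Isl1 was listed at 0 in all 6 libraries, and Tbx3 overlapped between chambers, at 2.66, 1.13 and 9.89 FPKM in atrium and 3.91, 2.35 and 3.05 FPKM in V (adjusted p = 0.872). Nerve transcripts were led by atrium 3: Npy measured 70.5, 30.5 and 349 FPKM in atrium and 11.6, 11.1 and 13.8 FPKM in V (2.61 ± 0.77, adjusted p = 0.0201). The Npy call was lost without V 1 or V 2, and its log2 difference as deposited, 2.82, became 1.86 without atrium 3. Mbp, a myelin gene also made outside myelin, was higher evenly, at 23.1, 29.8 and 24.9 against 1.92, 2.3 and 1.43 FPKM (3.01 ± 0.15, adjusted p = 3.24e-05). Of 8 Schwann cell markers 2 were higher, a count of 5 without atrium 2 and of 1 without V 2. Of 8 neuron markers tested of 17, 5 were higher, 4 under all 3 scalings and 3 without V 1 or without V 2.

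White adipocyte markers were mixed, with 3 of 12 higher and 2 lower in atrium. Adipoq and Plin1, which coats fat droplets, were led by atrium 1, with Adipoq at 33.2, 0.04 and 3.56 FPKM and Plin1 at 26.8, 0 and 1.12 FPKM in atrium, and did not pass (adjusted p = 0.119 and adjusted p = 0.212), though Adipoq passed without atrium 2. Without atrium 2 the higher count was 5, and without V 2 or without V 3 the lower count was 1. Of the brown fat list, Ucp1 was likewise high in atrium 1 alone, at 96.7, 0 and 0.72 FPKM in atrium and 0, 0.89 and 0.37 FPKM in V (adjusted p = 0.321). Cidea, a lipid droplet protein on both fat lists, was higher in all 3 atrium libraries, at 168, 116 and 94.8 against 59.5, 50.7 and 57.8 FPKM (0.91 ± 0.20, adjusted p = 0.00348). Where the Cidea transcripts came from was not tested.

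BMP and TGF beta signalling genes leaned to atrium, with 14 of 19 tested of 24 higher and 1 lower, 12 and 1 under all 3 scalings, and a median of 1.03. Bmp10, a cardiac ligand, measured 947, 932 and 127 FPKM in atrium and 0.29, 0.21 and 0 FPKM in V (8.49 ± 0.73, adjusted p = 0.000222), and atrium 3 held far less than the other two. Ligands Bmp2 and Bmp5 were higher by 1.29 ± 0.12 and 1.57 ± 0.23. Bmp6, which drives hepcidin transcription in liver, was higher as well, at 30.4, 40.5 and 12.8 against 8.13, 6.74 and 7.57 FPKM (1.42 ± 0.37, adjusted p = 0.00947). Of the listed direct targets, the Id genes and inhibitory Smads, Id2 and Smad6 were higher under all 3 scalings, by 1.03 ± 0.21 and 1.38 ± 0.26, as were Id4 and Smad7. Id3 was higher as deposited (0.51 ± 0.21, adjusted p = 0.0245), a call lost after median-ratio scaling and without atrium 2, V 1 or V 3. Id1 did not pass, at 53.4, 85.3 and 85.4 FPKM in atrium and 56.8, 83 and 64.6 FPKM in V (adjusted p = 0.672). Id4 stood at 17.7, 19.5 and 16.6 against 4.78, 6.24 and 4.58 FPKM (1.41 ± 0.12, adjusted p = 0.000173), and the inhibitory Smad7 at 36, 41.5 and 28 against 9.49, 11 and 12.6 FPKM (1.37 ± 0.16, adjusted p = 0.000429). The lower gene was Gdf15, a stress cytokine, at 0.42, 0.68 and 0.77 against 2.08, 2.87 and 1.21 FPKM (-1.09 ± 0.22, adjusted p = 0.0144). The count of lower genes was 3 after median-ratio scaling or without atrium 3, and 2 after quantile normalization.

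Of retinoic acid genes, 7 of 12 tested of 14 were higher and none lower, 4 under all 3 scalings. Aldh1a2, which makes retinoic acid and is also an epicardial marker, measured 7.71, 7.42 and 7.44 FPKM in atrium and 1.9, 0.74 and 1.37 FPKM in V (1.69 ± 0.19, adjusted p = 0.000371), and Rdh10, the enzyme before it, 18.6, 16.9 and 14.7 FPKM in atrium and 3.77, 4.9 and 4.71 FPKM in V (1.49 ± 0.13, adjusted p = 0.000152). Without atrium 2, or after either of the other scalings, 1 gene of the list was called lower. Wnt and Notch genes went both ways, 5 higher and 5 lower of 20 tested of 23, 4 and 5 under all 3 scalings, with a median of -0.16. After median-ratio scaling, and again after quantile normalization, 4 were higher and 7 lower. Without atrium 3, 7 were lower. The secreted Wnt modulators Sfrp1 and Dkk3 were higher in atrium: Dkk3 measured 199.7, 171 and 157 FPKM in atrium and 21.6, 24 and 31.7 FPKM in V (2.52 ± 0.16, adjusted p = 6.17e-05), and Sfrp1 23.6, 15.5 and 57.1 FPKM in atrium and 3.52, 2.96 and 1.94 FPKM in V (2.72 ± 0.43, adjusted p = 0.00169), with atrium 3 the highest. The ligand Wnt11 was lower, at 1.23, 0.77 and 2.41 against 8.38, 7.3 and 8.73 FPKM (-2.15 ± 0.23, adjusted p = 0.000784).

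Matrix genes did not move as a group: of 34 tested of 36, 7 were higher and 5 lower, 5 and 5 under all 3 scalings. These counts moved with single libraries. The lower count was 2 without atrium 1, atrium 2 or V 1, 3 without V 2 or V 3, and 8 without atrium 3, and the higher count was 4 without V 2 or V 3. The basement membrane genes Col4a1 and Col4a2 were lower, at 29.7, 33.5 and 42.7 against 91.4, 87 and 64.5 FPKM (-1.39 ± 0.17, adjusted p = 0.00174) for Col4a1 and by -1.33 ± 0.14 for Col4a2. Eln, elastin, was higher, at 31.8, 39.2 and 32.5 against 13.9, 14.1 and 8.88 FPKM (1.22 ± 0.18, adjusted p = 0.000904), as was Ogn, osteoglycin (1.34 ± 0.12, adjusted p = 0.000172). The fibrillar Col1a1 overlapped, at 28, 41.5 and 58.9 FPKM in atrium and 55.6, 34.2 and 27.5 FPKM in V (adjusted p = 0.765).

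**Figure D5:**
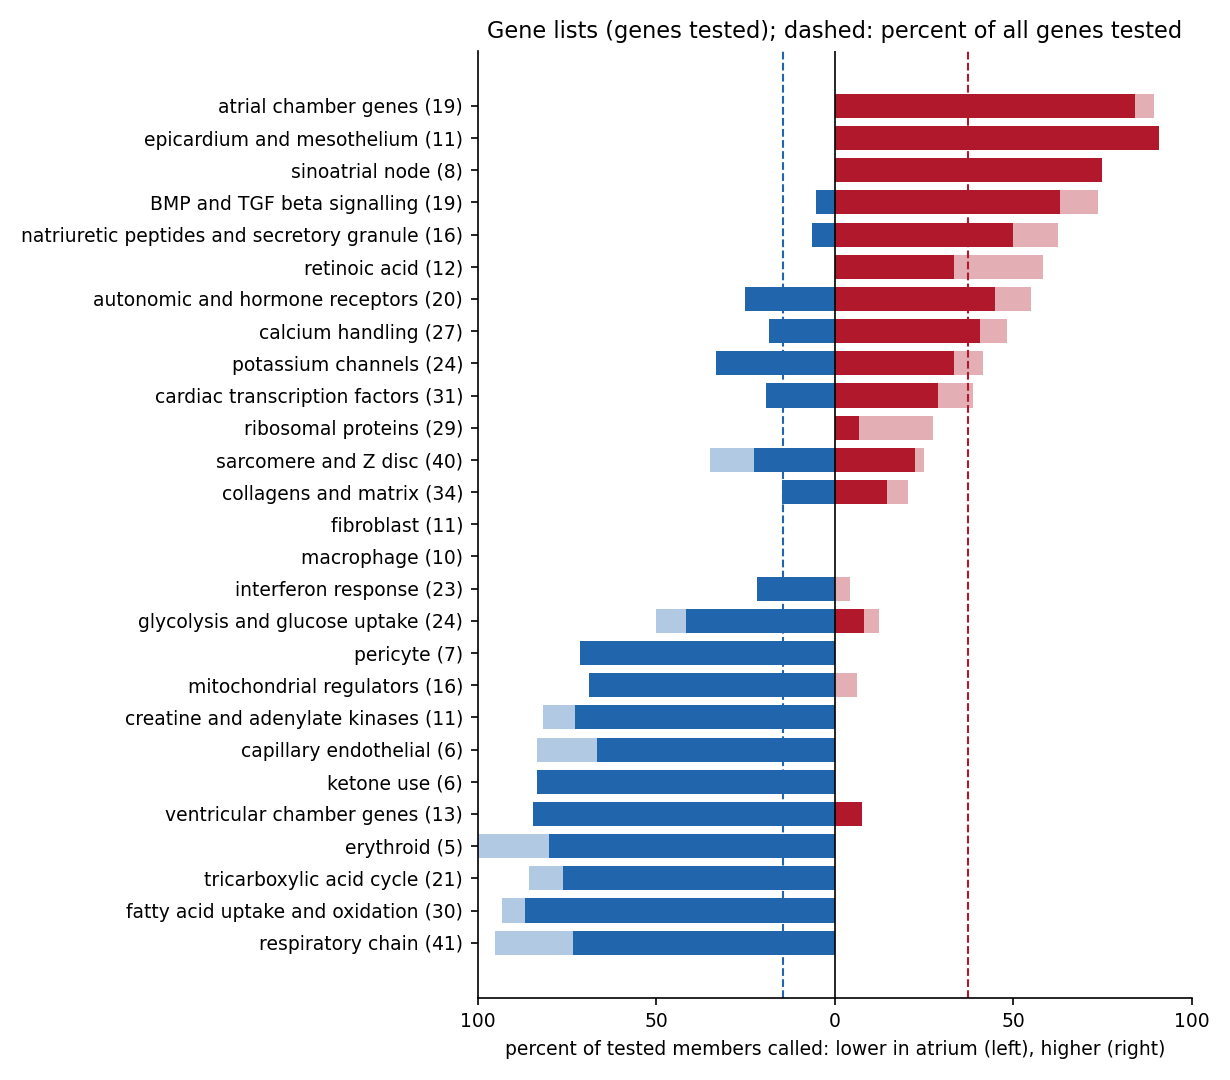
Percent of the tested members of 27 gene lists (number tested in brackets) called higher in atrium, to the right, and lower, to the left. Dark bars are calls under all 3 scalings, pale ends calls as deposited only, and dashed lines the percent of all genes tested called higher (37.2%) and lower (14.5%) as deposited. Metabolic lists extend to the left, and atrial, epicardial, sinoatrial and BMP lists to the right.

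Stress and response genes gave few shared directions. Of 16 small heat shock and chaperone genes tested of 17, 6 were higher and 4 lower, 3 and 3 under all 3 scalings. Hspb6, a small heat shock protein of muscle, measured 548, 552 and 821 FPKM in atrium and 3288, 3187 and 2262 FPKM in V (-2.40 ± 0.21, adjusted p = 0.000353), and Bag3, a co-chaperone of the Z disc, 151, 144 and 194 FPKM in atrium and 315, 299 and 312 FPKM in V (-1.14 ± 0.12, adjusted p = 0.00103). Hspb3 was higher, at 128, 162 and 116 against 56.5, 68.5 and 49.4 FPKM (0.99 ± 0.16, adjusted p = 0.00112). Of 16 cardiac stress genes tested of 18, 3 were higher and 5 lower, 2 and 5 under all 3 scalings. Ccn2, connective tissue growth factor, was higher, at 192, 129.7 and 137 against 58.1, 55.1 and 27.2 FPKM (1.53 ± 0.30, adjusted p = 0.00301), and Nmrk2, a nicotinamide riboside kinase of stressed muscle, lower, at 11, 17.7 and 31.2 against 64.6, 69.4 and 75.7 FPKM (-2.08 ± 0.32, adjusted p = 0.00304).

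The early response genes Fos and Egr1 were highest in atrium 3. Fos measured 16.6, 14.6 and 102 FPKM in atrium and 6.98, 8.0 and 7.04 FPKM in V (1.66 ± 0.67, adjusted p = 0.0512), and Egr1 59.6, 42 and 213 FPKM in atrium and 43, 37.1 and 23.1 FPKM in V (adjusted p = 0.103). Neither passed, though Fos passed without any 1 of the atrium libraries and Egr1 without atrium 2. Of 20 such genes 1, Nr4a1, was higher under all 3 scalings (1.09 ± 0.35, adjusted p = 0.019), a call lost without atrium 2, V 1 or V 2. The count of higher genes was 3 without atrium 1, 2 without atrium 2 or atrium 3, and 0 without V 1 or V 2, and without atrium 3 a count of 4 was lower. Interferon genes were lower in 5 of 23 under all 3 scalings and higher in 1 as deposited. After median-ratio scaling, and again after quantile normalization, 11 were lower and 0 higher. The lower count was 3 without atrium 2, V 1 or V 2 and 8 without V 3, and the higher count 0 without atrium 1 or atrium 2. Irf7, a master factor of the response, measured 32, 22.2 and 26.8 FPKM in atrium and 63.8, 38.3 and 42.3 FPKM in V (-1.0 ± 0.21, adjusted p = 0.0176), a call lost without atrium 2.

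Complement genes included C4a at 46.8, 26.5 and 47.8 FPKM in atrium and 4.07, 0.18 and 0.3 FPKM in V (4.12 ± 0.56, adjusted p = 0.000973) and Cfb, complement factor B, at 52.2, 38.8 and 46.8 FPKM in atrium and 13.8, 8.14 and 6.52 FPKM in V (2.0 ± 0.25, adjusted p = 0.000579). Reads of C4a and C4b, near-identical genes, may be split between them, and both were higher in atrium, C4b by 2.05 ± 0.21. Cd74, the chain that guides antigen presentation, was lower, at 88, 124 and 179.7 against 414, 360.3 and 429 FPKM (-1.88 ± 0.24, adjusted p = 0.00151). Of 16 genes of this list tested of 17, 5 were higher and 1 lower, all under all 3 scalings.

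Of the ribosomal proteins, Rpl3 and Rpl3l formed another isoform pair. Rpl3l, the ribosomal protein of striated muscle, measured 2.17, 0.58 and 11.7 FPKM in atrium and 286, 279.8 and 324 FPKM in V (-6.43 ± 0.67, adjusted p = 0.000512). Rpl3, its general form, measured 314, 376 and 311 FPKM in atrium and 80.6, 72.5 and 65.5 FPKM in V (1.97 ± 0.11, adjusted p = 5.02e-05). Rpl3l made up 0.685, 0.154 and 3.61% of the pair in atrium and 78, 79.4 and 83.2% in V, with the highest atrium share in atrium 3. Counts over the ribosomal list depended on the scale: of 29 tested of 30, 8 were higher as deposited, 24 after quantile normalization and 2 under all 3 scalings, with a median of -0.01. The count as deposited was 4 without V 1 and 5 without V 2, and without atrium 2 a single gene was called lower. Eef1a1, a translation elongation factor with many processed copies in the genome, was higher, at 1357, 1625 and 1370.0 against 587, 511 and 487 FPKM (1.24 ± 0.12, adjusted p = 0.000196).

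Further genes with large differences belonged to none of these groups. On the atrial side, the kinase Sbk2 measured 179, 197 and 139.9 FPKM in atrium and 1.82, 1.08 and 1.78 FPKM in V (5.87 ± 0.17, adjusted p = 4.62e-06), and its relative Sbk3 203, 225 and 106 FPKM in atrium and 0.5, 0.17 and 0.3 FPKM in V (6.81 ± 0.27, adjusted p = 1.78e-05). Rab15, a small GTPase of endosomes, measured 80.7, 106 and 65.7 FPKM in atrium and 0.08, 0.05 and 0.07 FPKM in V (6.08 ± 0.17, adjusted p = 4.62e-06). Stard10, a lipid transfer protein, measured 355, 489 and 247 FPKM in atrium and 7.72, 8.11 and 8.39 FPKM in V (5.06 ± 0.22, adjusted p = 2.48e-05). In all 4 genes the lowest atrium library was many times the highest V library. Genes were named for large differences without overlap, on either side, so such separation is part of the choice. Epha4, an ephrin receptor, measured 66.9, 52 and 53 FPKM in atrium and 1.5, 1.5 and 1.1 FPKM in V (4.41 ± 0.13, adjusted p = 4.62e-06). Atp1b4, a protein related to sodium pump subunits, measured 45.4, 32.2 and 32.3 FPKM in atrium and was listed at 0 in the 3 V libraries. Among abundant genes, the secreted Gpx3, a glutathione peroxidase, measured 1727, 2055 and 1631 FPKM in atrium and 318, 274 and 267 FPKM in V (2.44 ± 0.12, adjusted p = 3.4e-05), and Clu, clusterin, 4017, 3928 and 3063 FPKM in atrium and 1260.2, 1243 and 976 FPKM in V (1.45 ± 0.16, adjusted p = 0.000336).

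On the ventricular side, Card9, an adaptor of innate immune signalling, measured 1.9, 1.28 and 1.5 FPKM in atrium and 77.2, 98.1 and 64.2 FPKM in V (-5.18 ± 0.17, adjusted p = 8.28e-06). Gpsm1, a modulator of G protein signals, measured 10.7, 9.66 and 12.6 FPKM in atrium and 222, 243 and 234 FPKM in V (-4.51 ± 0.10, adjusted p = 4.5e-06). Aqp7, a glycerol channel, measured 11.4, 1.13 and 7.17 FPKM in atrium and 129, 122 and 149.6 FPKM in V (-4.69 ± 0.59, adjusted p = 0.00105). Its atrium libraries varied, with atrium 1 the highest, but all lay far below V. Trim50, a ubiquitin ligase, measured 0.24, 0.04 and 0.11 FPKM in atrium and 17.9, 18 and 15.2 FPKM in V (-4.21 ± 0.12, adjusted p = 5.79e-06), and the membrane protein Tmem179 3.54, 0.85 and 2.76 FPKM in atrium and 44.4, 53.5 and 54.9 FPKM in V (-4.24 ± 0.31, adjusted p = 0.000175). The vehicle V values of Card9, 118, 100.2 and 71.1 FPKM, and Gpsm1, 259, 285 and 223 FPKM, were of the same order as those of V under empagliflozin.

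The 8 tissues of the empagliflozin arm placed these genes in the body, as a description without a test, since atrium and V are among the tissues. Of the 165 genes higher in atrium by more than 2, 74 (44.8%) had their highest mean in atrium, 37 (22.4%) in brain, 21 (12.7%) in lung, 13 in white fat, 11 in kidney, 8 in aorta and 1 in brown fat. Of all genes tested, 7.02% had their highest mean in atrium. Of the 120 genes lower by more than 2, 61 (50.8%) had their highest mean in V, 19 in kidney, 14 in brown fat, 8 in lung, 7 in brain, 6 in white fat and 5 in aorta, beside 7.10% of all genes tested with their highest mean in V. The choice of genes higher in a chamber leaves the other chamber at 0 by construction. It also raises the share of the chosen chamber, so the shares of all genes tested are no fair comparator. Without the limit of 2, 2235 genes were higher in atrium under every scaling. Of these, 17.5% had their highest mean in atrium, 30.5% in brain and 26.3% in lung. Of the 1741 genes lower under every scaling, 31.0% had it in V and 27.5% in brown fat.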

How the data were processed

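RNA of 8 tissues was read on a BGISEQ-500 in single reads of 50 bases, per the labels' protocols. Among tools, HISAT2 2.0.4 and Bowtie2 2.2.5 appear in the submitters' processing notes, with Rnor_6.0 as the build. Which program made the values, and how it assigned reads of near-identical genes, is not stated. The authors deposited FPKM per gene and library in 1 table per treatment arm, so total reads are unknown and no count model was run. Of the gene IDs, 19103 were found in the RefSeq table, from which promoters were copied.

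From the deposited FPKM, log2(FPKM + 1) was tested in limma 3.58.1 (R 4.3.3, with mean-dependent variance) over the 6 libraries, for genes whose chamber mean reached 1 FPKM in atrium or V, with Benjamini-Hochberg adjustment at 0.05. Tables were handled in Python 3.11.15 with pandas 2.3.3 and numpy 2.4.6. Tested on simulated data for 12122 genes of this comparison, the fit recovered 28.4%, 70.1% and 83.3% of changes of 0.5, 1 and 2 on the log2 scale, and 6.2% of its calls were unchanged genes. The simulation changed 67, 67 and 66 genes by these sizes and kept all others equal between chambers. In the data 51.7% of genes were called, so these rates need not hold for the real comparison. Alternatives were median-ratio scaling, quantile normalization, a smaller pseudocount (0.1), dropping the filter or raising it to 5 FPKM, robust empirical Bayes, 1 fit over all empagliflozin tissues, a block for the replicate number, each library left out, and, chosen after seeing the data, atrium 1 and 3 left out together. Replicate numbers of the chambers were not taken as pairs.

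The members and the 54 gene lists (27 of processes, 27 of cell types) were chosen with earlier results of these data known. Named genes were the 15 per direction with the largest log2 difference and no overlap, the 10 per direction with the largest difference in mean FPKM, all members of both chamber lists, and up to 4 per other list with the lowest p. Some of these are not reported here, and other members named were chosen after their values were seen. Every column of values in the tables used here maps to a sample.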

Additional observations from a re-analysis of the deposited data

How the results depend on the processing

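The count of genes higher in atrium was 4665 and of genes lower 1822. After quantile normalization they were 2718 and 2844, and after median-ratio scaling 2887 and 3021. With all empagliflozin tissues in 1 fit they were 2370 and 793, and 54 of the 212 genes named lost their call. With atrium 1 and 3 left out together, a setting chosen after seeing the data, they were 2942 and 1574, on a single atrium library assumed to vary like V, and 17 named genes lost their call, Acta1, Ankrd23, Ccn2, Nppa and Xirp2 among them. With the pseudocount at 0.1, the filter dropped or raised to 5 FPKM, or robust empirical Bayes, both counts stayed within 1.5 times, at 3333 to 4847 and 1605 to 1820. Without the filter 7 named genes lost their call (Actc1, Irx5, Kit, Nppb, Tnni3, Tnnt2 and Tpm1). Cyp2e1, the hepatocyte gene, passed as lower in atrium after both scalings. With 1 library left out the counts ran from 3586 to 4501 and from 1462 to 2014.

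The replicate numbers were not taken as pairs: deviations of same-numbered libraries from their group means correlated at -0.039, 0.084 and 0.041 across genes. With the replicate number as a block the counts were 4401 and 1762, and no named gene lost its call.

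Of the 6487 genes called as deposited, 25 changed sign after median-ratio scaling and 47 after quantile normalization, none of them named here or called the other way, and none changed sign under the other settings. The sign of the log2 difference as deposited, atrium minus V, changed for 18 named genes that did not pass the test, Tbx3 passing as lower with atrium 1 and 3 left out. After median-ratio scaling the values were -0.22 for Atp2a2, -0.17 for Casq2, -0.18 for Ckb, -0.11 for Col1a1, -0.14 for Dcn, -0.22 for Gata4, -0.23 for Gata5, -0.14 for Gja1, -0.12 for Id1, -0.10 for Myh6, -0.097 for Npr2, -0.13 for Pecam1, -0.029 for Ryr2, -0.066 for Tbx3, -0.10 for Ttr and -0.059 for Wt1. After quantile normalization they were -0.079 for Gata5, -0.028 for Npr1, -0.083 for Npr2, -0.20 for Tbx3 and -0.14 for Wt1. With atrium 1 and 3 left out they were -0.17 for Atp2a2, -0.033 for Casq2, -0.37 for Myh11, -0.022 for Myh6, -0.14 for Npr2, -0.93 for Tbx3 and -0.30 for Wt1. With 1 library left out their ranges were -0.059 to 0.12 for Atp2a2, -0.11 to 0.19 for Ckb, -0.13 to 0.40 for Col1a1, -0.18 to 0.59 for Dcn, -0.041 to 0.092 for Gata4, -0.064 to 0.089 for Gata5, -0.028 to 0.27 for Gja1, -0.0039 to 0.34 for Id1, -0.092 to 0.80 for Myh11, -0.030 to 0.29 for Myh6, -0.066 to 0.26 for Npr2, -0.029 to 0.21 for Pecam1, -0.54 to 0.64 for Tbx3, -0.096 to 0.27 for Ttr and -0.098 to 0.37 for Wt1.

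Of the list counts, 13 of 104 moved by more than 1.5 times after median-ratio scaling and 17 after quantile normalization. With all empagliflozin tissues in 1 fit, 44 of 104 moved. With 1 library left out, from 8 of 102 (without V 3) to 16 of 104 (without V 2) moved. Depth limits low genes, since total reads are unknown.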

Other observations

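Smooth muscle and lymphatic lists held shares of higher genes near or below the 37.2% of all genes called higher as deposited. The same counts held under all 3 scalings, where they stood above the 17.8% of all genes. Of 9 smooth muscle markers 3 were higher under all 3 scalings, with a median of 0.20, among them Acta2, smooth muscle actin, at 98.8, 149.8 and 160.0 FPKM in atrium and 40.7, 35 and 35.1 FPKM in V (1.62 ± 0.18, adjusted p = 0.000396), while Myh11, the smooth muscle myosin, did not pass, at 5.72, 3.58 and 14.7 and 5.18, 4.64 and 4.93 FPKM (adjusted p = 0.425). Without atrium 3, or after median-ratio scaling, 1 smooth muscle marker was lower. Of 6 lymphatic markers tested of 7, 2 were higher under all 3 scalings, with a list median of -0.03: Lyve1 at 17.4, 29.2 and 20.4 against 7.4, 5.12 and 6.9 FPKM (1.41 ± 0.20, adjusted p = 0.000902) and Pdpn, podoplanin, also found on mesothelium, by 1.05 ± 0.32. Without atrium 3, 1 lymphatic marker was lower.

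Ventricular conduction markers divided, with 3 of 5 tested of 7 higher and 2 lower, 2 and 2 under all 3 scalings, and of these Etv1, Cacna1g and Gja5 are also on atrial lists. Of 6 skeletal muscle genes tested of 12, 3 were higher and 1 lower under all 3 scalings. Among them Tnnt1, the slow skeletal troponin T, measured 2.25, 3.12 and 3.8 FPKM in atrium and 1.07, 0.8 and 0.54 FPKM in V (0.95 ± 0.19, adjusted p = 0.0024), and the other 6 stayed under 1 FPKM in all 6 libraries. Of 7 cell cycle genes tested of 20, 2 were higher and 1 lower, 0 and 1 under all 3 scalings. The higher count was 0 without V 2 and 1 without any 1 of the other libraries, and the lower call was lost without atrium 2, atrium 3, V 1 or V 2. Mki67, the usual proliferation marker, was not tested for its low level, at 0.41, 0.25 and 0.31 and 0.22, 0.27 and 0.09 FPKM.

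The remaining lists had few members to test. Of brown fat genes 1 of 6 tested was higher and 3 lower, 1 and 2 under all 3 scalings, of hepatocyte genes 1 of 3 was higher (Hp, haptoglobin, adjusted p = 0.00796, not under all 3 scalings), and of cartilage and valve genes 1 of 3 was higher and 1 lower, 0 and 1 under all 3 scalings. The higher call among the cartilage and valve genes was lost without any 1 of atrium 1, atrium 2, V 1, V 2 or V 3. Of the hepatocyte genes 1 was lower without atrium 1. Of mast cell genes 1 of 3, Kit, was lower (-0.82 ± 0.19, adjusted p = 0.0289), a call lost without atrium 1, atrium 2, V 1, V 2 or V 3, and 2 of the list were lower without atrium 3 or after quantile normalization. The 1 thymocyte gene tested, Cd1d1, a lipid-presenting molecule not restricted to thymocytes, was higher, at 82, 73.7 and 80.3 against 37, 40.6 and 42.5 FPKM (0.75 ± 0.08, adjusted p = 0.00026). Limma called 0 of 4 T cell, 0 of 2 neutrophil and 0 of 1 alveolar genes, with 1, 0 and 0 at an unadjusted p under 0.05 and 1 T cell gene higher without atrium 1, and no B cell or airway gene was abundant enough to test.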
